A study of Homo sapiens with 6 samples.

Results

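The genes described here encode 10 proteins that write or erase chemical marks on tubulin, the subunit of microtubules. They are ATAT1, HDAC6, TTL, VASH1, VASH2, SVBP, TTLL4, TTLL5, TTLL12 and AGBL5. They were chosen by name, and each matched 1 Ensembl identifier among the 78932 genes of the count table. All 10 had enough reads to be tested, although VASH1 had only 62 reads over all libraries. Polyadenylated RNA was sequenced from HCC1937, a breast cancer cell line that the series title places among triple-negative cells. One group of 3 libraries came from cells given 8 nM docetaxel for 24 h, and the other group of 3 libraries from control cells of the same line. The labels give no vehicle for the controls and no genetic change in either group, and 1 line stands for the tumour type.

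Gene counts totalled 38622062 to 39181848 in the docetaxel libraries and 39033097 to 41675186 in the control libraries. The keratin genes KRT8 and KRT18, which mark simple epithelium, averaged 1965 and 666 CPM, which are reads per 1e6 counted reads, over the 6 libraries. The other keratins examined, KRT5, KRT14 and KRT19, averaged 0.0386, 0.127 and 0.105 CPM, and the epithelial adhesion genes EPCAM and CDH1 averaged 0.0666 and 0.689 CPM. The epithelial character thus rests on 2 of 7 markers, KRT8 and KRT18. Of the marker genes of other cell types, the leukocyte genes summed to between 1.1 and 1.5 CPM in docetaxel and between 0.408 and 1.24 CPM in control. The 5 fibroblast genes summed to between 141 and 148 CPM in docetaxel and between 140 and 147 CPM in control, nearly all from COL1A1, with COL1A2, DCN and LUM each under 0.2 CPM. The 3 endothelial genes summed to between 2.77 and 3.50 CPM in docetaxel and between 2.05 and 2.95 CPM in control. The 4 neuronal genes summed to between 36.3 and 41.7 CPM in docetaxel and between 41.3 and 47.2 CPM in control, most of it SNAP25. Of the 7 epithelial genes 3 were tested, and 2 rose by the test described below, by which 9.14% of all tested genes rose. The part of these marker differences in the results was not tested.

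Microtubules are built from α- and β-tubulin, and enzymes mark them in ways that read out their age and guide motor proteins. ATAT1 acetylates a lysine inside the tube, and HDAC6 and SIRT2 remove the acetyl group. The last amino acid of most α-tubulins is a tyrosine, which VASH1 or VASH2 cuts off together with their partner SVBP and which TTL puts back on free tubulin. TTLL4 and TTLL5 start chains of glutamate on the tails of tubulin, and AGBL5 removes the glutamate at the branch point of such chains. Docetaxel holds microtubules in a polymerised state, and long-lived microtubules are known to gather acetylated and detyrosinated tubulin. The table holds RNA of the enzymes, and the marks themselves were not measured.

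The sites of these reactions can be read in the coding sequences of the α-tubulin genes, and the lines below give the final 30 coding bases before the stop codon for 2 of the abundant genes that differ in their last codon, which is in capitals. They come from GENCODE release 29 transcripts on GRCh38.
TUBA1C: gctgacggagaggatgagggtgaagagTAT
TUBA4A: tcctatgaggacgaggatgagggagaaGAA
The first of these lies at chr12:49273195-49273224 on the plus strand and the second at chr2:219250355-219250384 on the minus strand. Each lies within 1 coding exon. TUBA1C ends in TAT, a tyrosine codon, which is the residue that VASH1 and VASH2 remove and TTL restores. TUBA4A ends in GAA, a glutamate codon, so its product is made without the final tyrosine. GAA and GAG codons among the letters before the last codon encode glutamates, the residues to which TTLL enzymes attach their chains. The stretch around codon 40, the lysine that ATAT1 acetylates and HDAC6 deacetylates, follows for TUBA1B, with that codon in capitals (chr12:49129591-49129620, minus strand).
TUBA1B: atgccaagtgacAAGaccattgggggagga
TUBA1A and TUBA1C carry the same 30 letters there, and TUBA4A also has AAG as codon 40.

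The levels of the 10 genes were compared per length in TPM, which is the count divided by the deposited gene length and scaled to the same sum in every library. TTLL12 was the most abundant, at 137 ± 5.57 TPM in docetaxel and 125 ± 1.36 TPM in control (SD, n = 3 each), above 94.6% of all tested genes. AGBL5 came next at 18.2 ± 1.79 TPM in docetaxel and 17.7 ± 0.318 TPM in control. TTL followed at 14.7 ± 0.452 and 15 ± 1.15 TPM in docetaxel and control, and TTLL4 at 9.25 ± 0.307 and 9.64 ± 1.10 TPM. HDAC6 had 7.38 ± 0.505 TPM in docetaxel and 6.95 ± 0.246 TPM in control, and SVBP had 6.87 ± 1.43 and 6.98 ± 0.798 TPM. The libraries of HDAC6 and SVBP overlapped, so these neighbours in the order did not separate. The same held for ATAT1, at 3.53 ± 0.443 TPM in docetaxel and 4.02 ± 0.227 TPM in control, and TTLL5, at 3.48 ± 0.487 and 3.41 ± 0.386 TPM. VASH2 had 0.523 ± 0.0603 TPM in docetaxel and 0.98 ± 0.15 TPM in control. VASH1 was lowest, at 0.106 ± 0.0560 TPM in docetaxel and 0.095 ± 0.0099 TPM in control, above only 1.1% of tested genes. All other neighbours in this order had no overlapping libraries. With the length of the longest transcript in place of the deposited gene length HDAC6 stood at 14.8 TPM over all libraries, against 7.17 TPM, and moved from the fifth to the third place. TTLL5 stood at 6.73 against 3.44 TPM and VASH2 at 1.2 against 0.749 TPM, so the middle of the order changes with the length used.

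**Figure D1:**
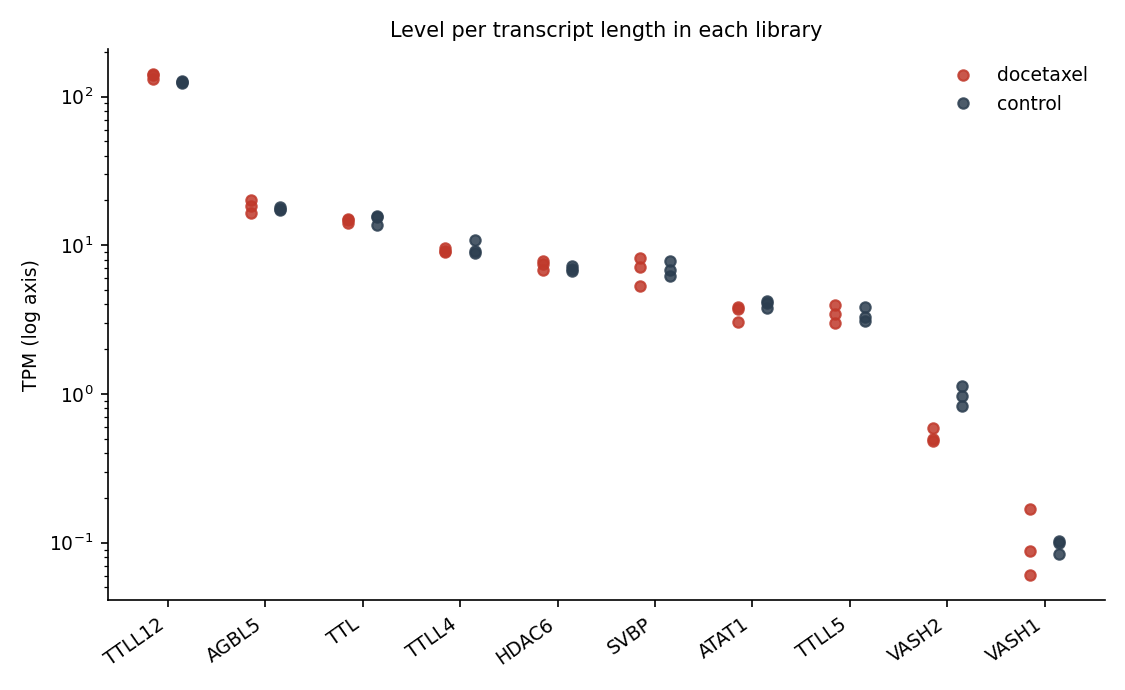
Level of each gene in TPM on a log axis, with docetaxel libraries left of control libraries and 1 dot per library. TTLL12 sits above 120 TPM in every library, and VASH2 and VASH1 lie below all the others.

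The docetaxel cells differed from control in 2 of the 10 genes. VASH2 fell to 0.552-fold and TTLL12 rose 1.12-fold, calls that both ended in a fit with offsets for GC content and length described below, while the other 8, among them ATAT1, HDAC6, TTL and SVBP, did not pass the test. A gene was called where its adjusted p in edgeR's quasi-likelihood test was under 0.05, over the 18040 genes tested, and log2 fold changes are docetaxel over control. By this rule 17.0% of all tested genes were called, 9.14% as higher and 7.82% as lower (1649 and 1410 genes, or 1096 and 1866 with scaling by library size alone). The enzymes, with 1 higher and 1 lower, thus lay near that share, and their median log2 fold change of 0.05 lay beside 0.01 for all tested genes. The ranges of the docetaxel and control groups were separate in 2 of the 10 genes, beside 32.0% of all tested genes. In RNA from whole cultures, fewer cells that make a transcript and less of it per cell cannot be told apart.

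**Figure D2:**
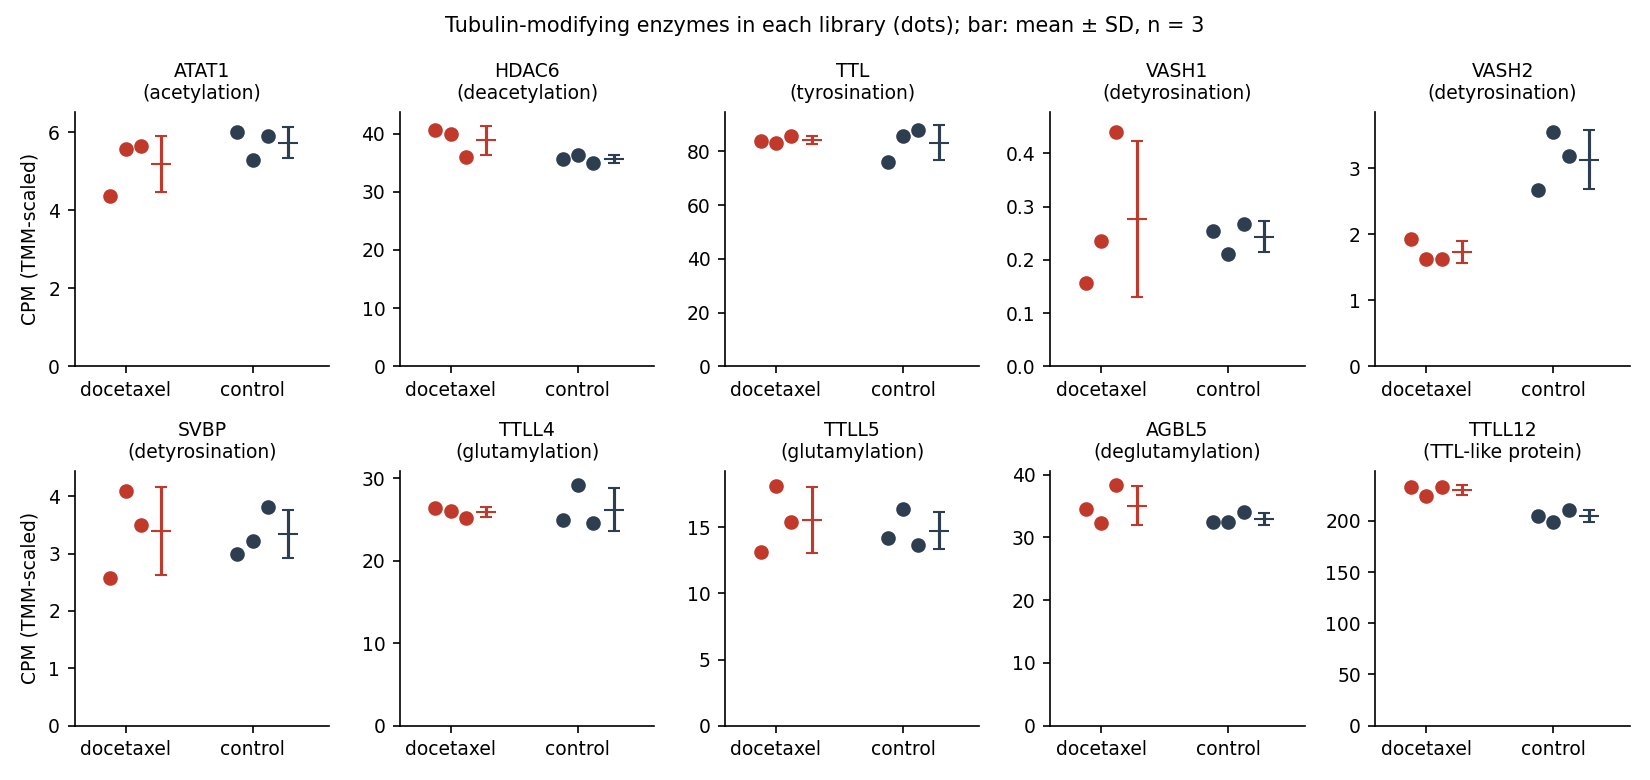
TMM-scaled CPM of each gene in every library, docetaxel left of control, with the mean and SD of 3 libraries as a bar beside the dots. Each axis starts at 0. The groups separate for VASH2 and TTLL12 and overlap in the other 8 panels.

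Of the detyrosinating enzymes, VASH2 (ENSG00000143494, GRCh38 chromosome 1, 212950520 to 212992037, plus strand), one of the proteases that cut off the tyrosine, had 74, 62 and 63 reads in the docetaxel libraries and 105, 151 and 131 reads in the control libraries. In TMM-scaled CPM these were 1.92, 1.63 and 1.63 with docetaxel and 2.66, 3.55 and 3.18 in control. Every docetaxel library lay below every control library. Docetaxel over control, this gave -0.86 ± 0.23 on the log2 scale (SE), or between 0.401-fold and 0.760-fold with 95% confidence (edgeR adjusted p = 0.0075). The call rests on few reads. Without control replicate 2, the library with the most VASH2 reads, the log2 fold change was -0.76 and the adjusted p of edgeR was 0.066. DESeq2 gave a log2 fold change of -0.87 with an unadjusted p = 0.00033 and no adjusted p for this gene.

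VASH1 (ENSG00000071246, chromosome 14, 76762189 to 76783015, plus strand), the other protease of the pair, had 6, 9 and 17 reads with docetaxel and 10, 9 and 11 reads in control. The docetaxel values lay on either side of the control values, and the confidence interval, from 0.459-fold to 2.82-fold, allows a change in either direction (edgeR adjusted p = 0.90). In GENCODE release 29, 10.2% of the 100-base stretches of its longest transcript also occur in another annotated gene. Of its exon bases 16.1% overlap the antisense gene VASH1-AS1, for which no counts were given. A further 11.1% figure is the overlap with a noncoding gene on the same strand, ENSG00000258610, which had 0 reads in every library. The VASH1 count is thus uncertain.

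SVBP (ENSG00000177868, chromosome 1, 42807052 to 42817252, minus strand), the small protein that VASH1 and VASH2 need for stability and activity, had 99, 156 and 135 reads with docetaxel and 118, 137 and 157 reads in control. Its exons also share 63 bases with ERMAP on the opposite strand, which had 134, 186 and 130 reads with docetaxel and 145, 175 and 180 reads in control. The SVBP groups overlapped, and the docetaxel libraries spread more widely than the control libraries, at 3.39 ± 0.766 CPM and 3.34 ± 0.420 CPM (SD, n = 3 each). On the log2 scale the change was 0.02, with a confidence interval from 0.763-fold to 1.35-fold (edgeR adjusted p = 0.97).

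TTL (ENSG00000114999, chromosome 2, 112482154 to 112541739, plus strand), the ligase that returns the tyrosine, had 83.7, 83.0 and 85.9 CPM with docetaxel and 75.9, 85.8 and 87.9 CPM in control. All docetaxel values lay within the control range. The edgeR adjusted p was 0.89, at 0.02 ± 0.05 on the log2 scale (SE), and the confidence interval ran from 0.937-fold to 1.09-fold. TTL is 1 of the genes whose value depended on the offsets for GC content and length, as described below.

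Ratios among VASH1, VASH2, SVBP and TTL were also read within each library, where scaling between libraries cancels. They leave out MATCAP1, another detyrosinase, described below, and so do not give the whole balance of removal and return. MATCAP1 itself did not pass (log2 fold change 0.07, edgeR adjusted p = 0.62). The log2 ratio of VASH2 over TTL, per length, was -4.65, -4.88 and -4.93 with docetaxel and -4.04, -3.81 and -4.0 in control. The groups did not overlap, with a difference of -0.87 between the means, close to the fold change of VASH2 itself. The log2 ratio of VASH2 over SVBP was -3.17, -4.08 and -3.85 with docetaxel and -2.92, -2.61 and -3.01 in control, again with no overlap. These VASH2 ratios were chosen after the values were seen. The log2 ratio of SVBP over TTL was -1.12 ± 0.343 with docetaxel and -1.10 ± 0.106 in control (SD, n = 3 each), and that of VASH1 over TTL was -7.25 ± 0.734 and -7.30 ± 0.225. In both of these the groups overlapped.

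Of the acetylation pair neither member passed. ATAT1 (ENSG00000137343, chromosome 6, 30626842 to 30646823, plus strand), the acetyltransferase, had 4.37, 5.56 and 5.65 CPM with docetaxel and 6.01, 5.29 and 5.92 CPM in control. Docetaxel replicate 1 lay below the rest, and the other libraries overlapped. Its change of -0.14 ± 0.15 on the log2 scale (SE) had an edgeR adjusted p of 0.61 and a confidence interval from 0.728-fold to 1.13-fold. HDAC6 (ENSG00000094631, chromosome X, 48801377 to 48824982, plus strand), the deacetylase, which also acts on other cytoplasmic proteins, had 40.6, 40 and 36.0 CPM with docetaxel and 35.5, 36.2 and 34.9 CPM in control. Docetaxel replicates 1 and 2 lay above every control library and replicate 3 lay among them. Its change of 0.13 ± 0.07 on the log2 scale (SE) had an edgeR adjusted p of 0.22, and the confidence interval ran from 0.992-fold to 1.2-fold. The log2 ratio of ATAT1 over HDAC6 per length was -1.38, -1.0 and -0.83 with docetaxel and -0.72, -0.94 and -0.72 in control, and the groups overlapped.

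Of the glutamylation enzymes none of the 3 passed. TTLL4 (ENSG00000135912, chromosome 2, 218710845 to 218755416, plus strand), a glutamylase that also modifies proteins other than tubulin, had 26.4, 26.0 and 25.2 CPM with docetaxel and 24.9, 29.1 and 24.5 CPM in control. The docetaxel values all lay within the control range, and the confidence interval ran from 0.881-fold to 1.1-fold (edgeR adjusted p = 0.92). TTLL5 (ENSG00000119685, chromosome 14, 75633625 to 75955078, plus strand), a glutamylase that begins chains on α-tubulin, had 13.2, 18.1 and 15.4 CPM with docetaxel and 14.2, 16.4 and 13.7 CPM in control. The docetaxel range enclosed the control range, with an interval from 0.903-fold to 1.23-fold (edgeR adjusted p = 0.73). TTLL5 overlaps FLVCR2 on the same strand, which had 167, 122 and 115 reads with docetaxel and 151, 154 and 160 reads in control, and which shares 1.40% of the 100-base stretches of the longest TTLL5 transcript. AGBL5 (ENSG00000084693, chromosome 2, 27042364 to 27070622, plus strand), the carboxypeptidase that removes the branch-point glutamate, had 34.5, 32.2 and 38.4 CPM with docetaxel and 32.4, 32.4 and 34.1 CPM in control. On the opposite strand AGBL5 shares 151 exon bases with OST4, which had 1372, 1634 and 1545 reads with docetaxel and 1501, 1528 and 1544 reads in control. The AGBL5 groups overlapped, with an interval from 0.959-fold to 1.18-fold (edgeR adjusted p = 0.48). The log2 ratio of AGBL5 over TTLL4 per length averaged 0.98 ± 0.153 with docetaxel and 0.88 ± 0.167 in control (SD, n = 3 each), and that of AGBL5 over TTLL5 averaged 2.40 ± 0.304 and 2.38 ± 0.169. Both ratios overlapped between the groups.

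TTLL12 (ENSG00000100304, chromosome 22, 43166622 to 43187133, minus strand) resembles TTL in sequence but is not known to ligate tyrosine or glutamate. It had 233, 224 and 233 CPM with docetaxel and 205, 199 and 210 CPM in control. Every docetaxel library lay above every control library. The change was 0.17 ± 0.04 on the log2 scale (SE), the confidence interval ran from 1.06-fold to 1.19-fold, and the edgeR adjusted p was 0.0042. It is a small change in an abundant transcript, for which 8081 to 9003 reads were counted per library. With offsets for GC content and length its log2 fold change was -0.00078 and the call ended.

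**Figure D3:**
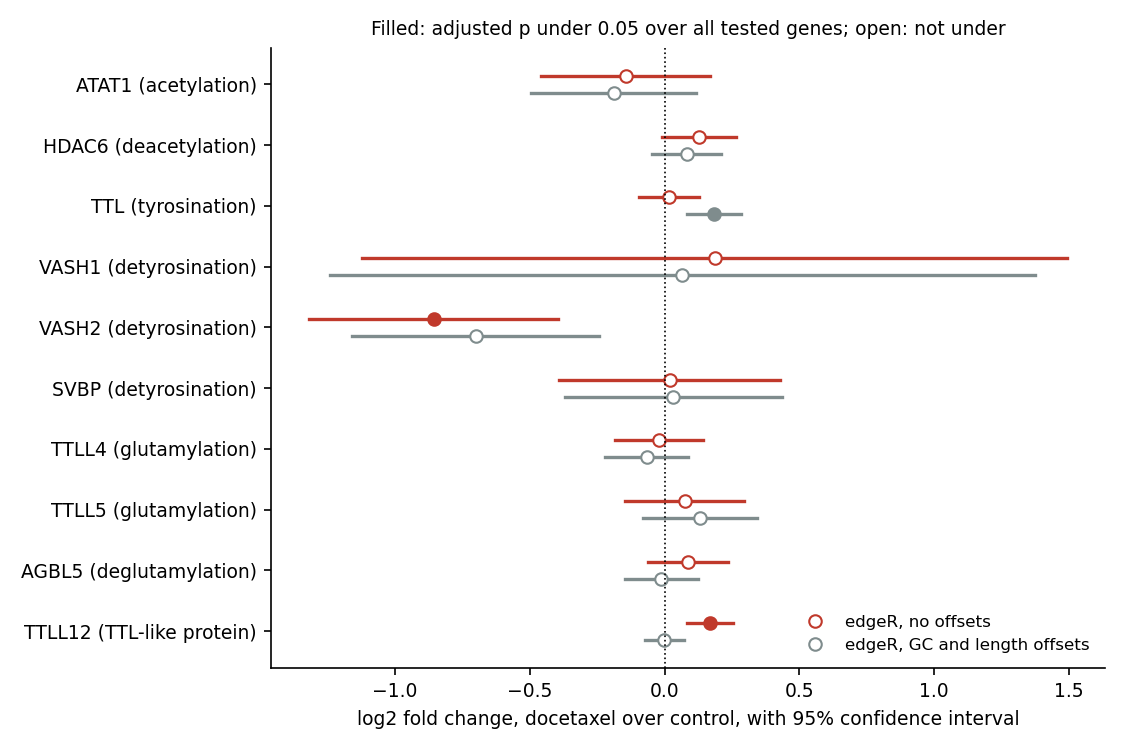
Log2 fold change of each gene, docetaxel over control, with its 95% confidence interval from edgeR (red) and from edgeR with offsets for GC content and length (grey). Filled circles passed the adjusted threshold. VASH2 lies at -0.86 and -0.70, TTLL12 at 0.17 and -0.00078, and TTL at 0.02 and 0.18.

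In these libraries fold changes followed the GC content of the transcript over all genes, and this trend moves with several of the results above. Tested genes with an annotated transcript were put into 5 groups of nearly equal size by GC content, and the group with the lowest, up to 41.3%, had a median log2 fold change of -0.19, with 28.8% of genes called lower and 0.183% higher. The group with the highest GC content, from 58.3%, had a median of 0.18, with 31.6% called higher and 0.122% lower. VASH2 (41.0% GC) falls in the lowest group and TTLL12 (61.6% GC) in the highest. TTL (42.5% GC) lies in the next to lowest group, where the median log2 fold change was -0.08.

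Offsets fitted in each library to GC content and gene length by loess, a smooth curve, gave other calls for 3 of the genes. TTLL12 lay at -0.00078 with an interval from -0.07 to 0.07 on the log2 scale (edgeR adjusted p = 0.996), so its call ended. VASH2 stayed at -0.70 ± 0.23 (SE), with an interval from -1.16 to -0.24, but no longer passed (edgeR adjusted p = 0.067, unadjusted p = 0.0036). TTL had a log2 fold change of 0.18 ± 0.05 (SE) and passed as higher (edgeR adjusted p = 0.026). With offsets 1 of the 10 enzymes was called, TTL as higher, beside 4.47% of all tested genes, 2.82% as higher and 1.66% as lower. The GC trend was measured between the same groups as the treatment. The parts of trend and treatment in the VASH2, TTLL12 and TTL values thus cannot be told apart. The offsets took GC content and gene length together, and the part of each in these shifts was not tested.

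**Figure D4:**
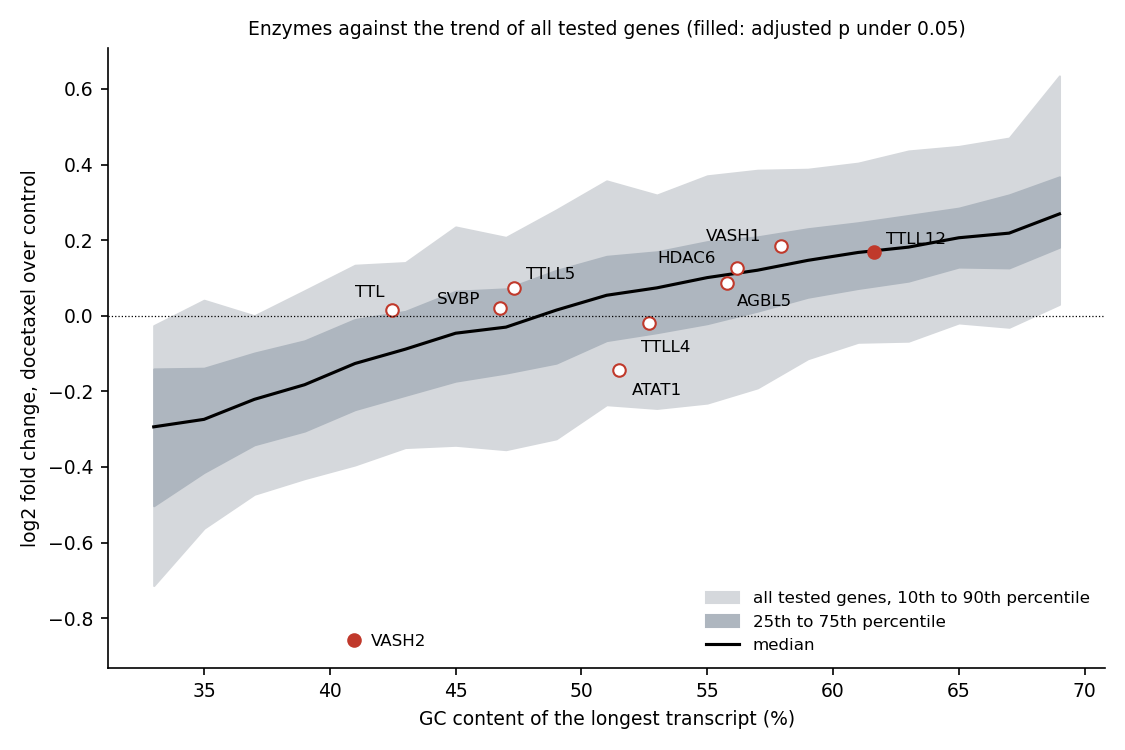
Log2 fold change, docetaxel over control, against the GC content of the longest transcript, with the 10 enzymes as red circles and the percentiles of all tested genes in bins of GC content as grey bands. TTLL12 sits close to the median line, TTL and TTLL5 above it, and VASH2 at -0.86 far below the grey bands.

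**Figure D5:**
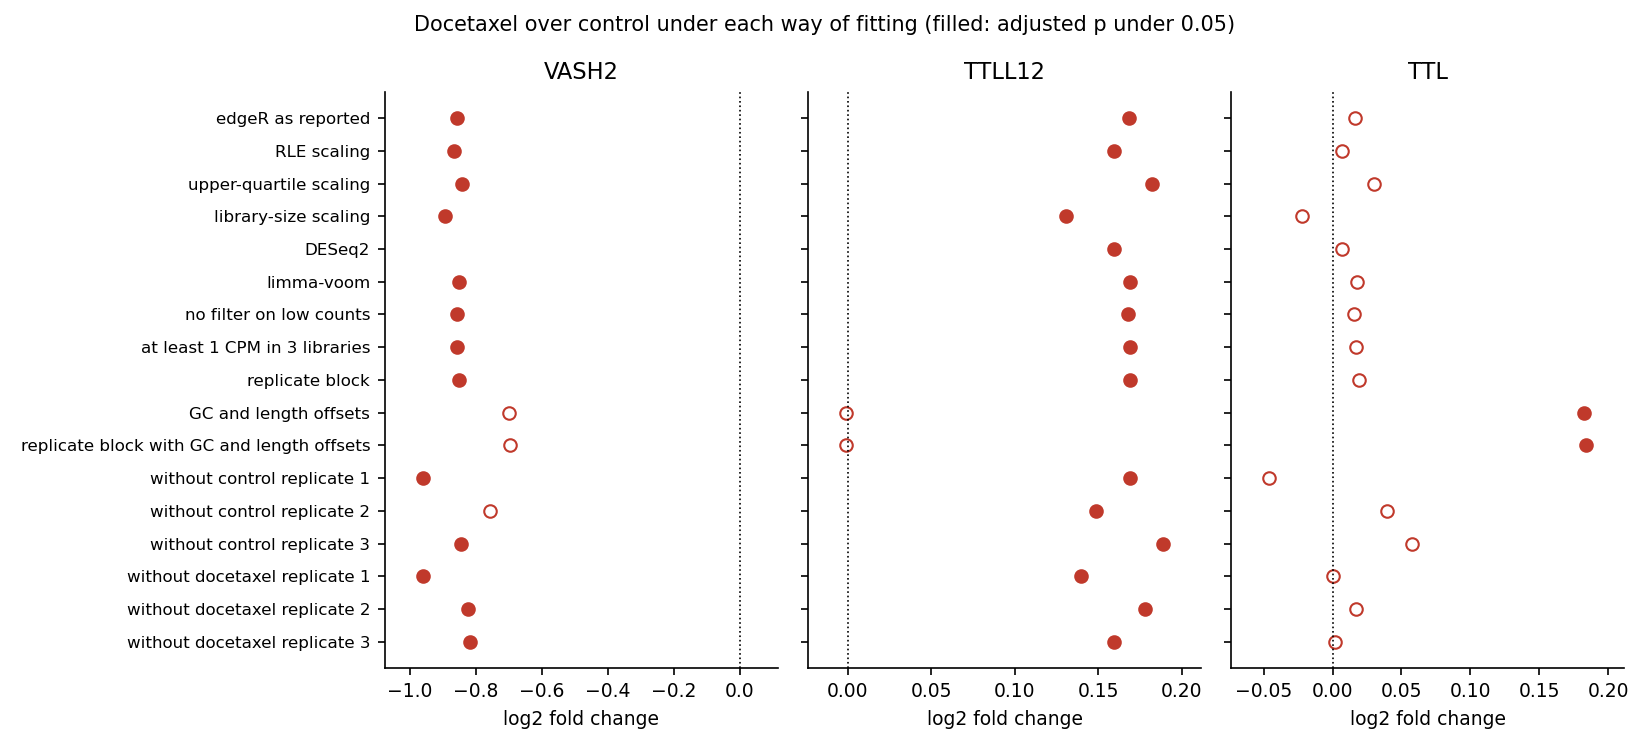
Log2 fold change of VASH2, TTLL12 and TTL under each way of fitting, with filled circles where the adjusted p was under 0.05. VASH2 stayed between -0.96 and -0.70, and TTLL12 lay near 0 only with the offsets. VASH2 has no circle for DESeq2, which gave it no adjusted p.

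Beyond the 10 genes, 27 other genes that write or erase the same marks, or build the enzyme complexes, were examined as 1 list. Of these 17 had enough reads to test, and 3 rose and 1 fell, a share of 23.5% beside 17.0% of all tested genes. Their median change on the log2 scale was -0.00294, beside 0.01 over all tested genes. TPGS1, a subunit of the TTLL1 polyglutamylase complex, rose 1.33-fold, at 27.1 ± 1.16 CPM in docetaxel and 20.3 ± 2.52 CPM in control (SD, n = 3 each, edgeR adjusted p = 0.0010). CSTPP1, another protein of that complex, rose 1.13-fold (edgeR adjusted p = 0.031). SIRT2, the second tubulin deacetylase, rose 1.18-fold, at 57.3 ± 0.880 CPM in docetaxel and 48.4 ± 2.04 CPM in control (edgeR adjusted p = 0.0037).

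MATCAP2, a paralog of the detyrosinase MATCAP1, was the gene that fell, at 21.1 ± 0.739 CPM in docetaxel and 25.6 ± 1.24 CPM in control (log2 fold change -0.28, edgeR adjusted p = 0.014). Its transcript has 39.9% GC, and those of TPGS1, SIRT2 and CSTPP1 have 61.7%, 60.1% and 54.8%. With offsets 0 of the 17 passed edgeR's test, with 2 at an unadjusted p under 0.05, beside 4.47% of all tested genes called and 2985 of 18040 at an unadjusted p under 0.05, whereas DESeq2 and limma-voom without offsets each called 4. TPGS1 then had a log2 fold change of 0.24 (edgeR adjusted p = 0.069), SIRT2 0.09 (0.41), CSTPP1 0.10 (0.39) and MATCAP2 -0.11 (0.55). CSTPP1 was called in only 6 of 16 alternative fits. MATCAP2 lost its call when either replicate 2 was left out, with an edgeR adjusted p of 0.056 without the docetaxel one and 0.092 without the control one.

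The catalytic partner of TPGS1, the glutamylase TTLL1, did not pass (log2 fold change -0.23, edgeR adjusted p = 0.49), nor did TPGS2, another subunit (-0.00294, 0.98), or AGTPBP1, the deglutamylase that shortens glutamate chains (-0.11, 0.35). SETD2, a histone methyltransferase that also methylates tubulin, had a log2 fold change of -0.01 (edgeR adjusted p = 0.95). With offsets for GC content and length the SETD2 value was 0.15 (edgeR unadjusted p = 0.0066, adjusted p = 0.095). TTLL2, TTLL10, AGBL1 and NICN1 had 0 reads in all 6 libraries, which allows at most 0.0720 to 0.0777 CPM per library by counting error alone. NICN1, a further subunit of the TTLL1 complex, stood at 0 while TPGS1, TPGS2 and CSTPP1 had 5623, 17921 and 12644 reads over all libraries, so its 0 may not reflect its RNA. The genes of this paragraph were picked with their values in view.

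Transcripts of α-tubulin, the substrate of these enzymes, were higher with docetaxel in most of the genes tested. Of 8 α-tubulin genes 6 were tested, and TUBA1A, TUBA1B, TUBA1C and TUBA4A passed as higher, with log2 fold changes of 0.41, 0.20, 0.21 and 0.21, beside 9.14% of all tested genes called higher. With offsets TUBA1A and TUBA1C passed, beside 2.82% of all tested genes called higher, and TUBA1B and TUBA4A had an edgeR adjusted p of 0.062 and 0.27. The genes whose coding sequence ends in a tyrosine codon made up 79.8%, 79.2% and 78.5% of the summed α-tubulin TPM with docetaxel and 78.8%, 79.0% and 79.6% in control. These shares overlapped between the groups, with TUBA4A supplying nearly all of the rest. TUBA1A, TUBA1B and TUBA1C share the stretch around codon 40 given above, and TUBA1A and TUBA1C overlap in position. How shared reads were counted is not given, so counts of single α-tubulin genes are uncertain.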

How the data were processed

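The authors deposited raw gene counts, beside a gene length in bases, in 1 table for 3 docetaxel and 3 control libraries of HCC1937. Per the submitters' processing notes, counts came from featureCounts 2.0.1 on GRCh38, with quality reports by MultiQC 1.11. For the aligner, annotation release, strand setting and shared reads, the details are not given in the sources used, so counts of overlapping or antisense genes are uncertain. Columns were matched to samples by library name. The labels call the replicates biological but name no separate cultures or days, so the spread behind each p-value may be technical. Within groups, libraries differed by more than sampling noise (Poisson dispersion index of 4.92 to 12.7), so none was counted as a duplicate.

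Of 78932 rows 61481 matched a name, which for 42179 is a symbol other than the identifier itself. Coordinates, transcript GC content and transcript sequences came from GENCODE release 29 on GRCh38, with GC values for 91.0% of tested genes and for all 10 enzymes. Of the 10, 8 share no 100-base stretch of their longest transcript with another gene.

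Counts were tested with edgeR 4.0.16 in R 4.3.3 (filterByExpr, TMM scaling, glmQLFit with robust estimation, glmQLFTest, two-sided, Benjamini-Hochberg over 18040 genes), and the script was checked on simulated counts. Each SE is the log2 fold change divided by the square root of the test's F, and intervals cover 95%. Alternatives were other scalings, DESeq2 1.42.0, limma-voom (limma 3.58.1), other filters, a replicate block, loess offsets on GC content and length (span 0.5), and leaving out each library. The 10 enzymes, the gene lists and these alternatives were chosen with earlier results of these data known. All 10 enzymes were named, and of the 27 other genes those called; others of the 27 that the text names were picked after their values were seen. Limits at 0 reads are 3 counts per library and cover counting error only. The coding ends of some α-tubulin genes are not reported here.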

Additional observations from a re-analysis of the deposited data

How the results depend on the processing

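Scaling by RLE, upper quartile or library size, limma-voom, either other filter on low counts and the replicate block gave 2 of the 10 enzymes called, 1 higher and 1 lower. DESeq2 called 1, since VASH2 had no adjusted p there, and the fits with GC and length offsets called 1, without and with the replicate block. Leaving out 1 library gave 1 to 2 enzymes called, with 1 without control replicate 2. Of the 27 other tubulin code genes 4 were called, 0 with offsets and 0 with offsets and the replicate block, and 2 to 3 without 1 library (2 without docetaxel replicate 2). Over all genes 3059 were called, 807 with offsets, 548 with offsets and the block, and 1730 to 3194 without 1 library, with 1730 without control replicate 2 and 1824 without docetaxel replicate 3. Scaling by library size gave 1096 higher and 1866 lower, against 1649 and 1410, and without docetaxel replicate 1 the split was 1353 and 1841. The cause of these differences was not tested.

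Some of the genes changed sign under an alternative, among them TTLL12, which had been called as higher. With library-size scaling TTL was at -0.022 and SVBP at -0.019 on the log2 scale. With offsets AGBL5 was at -0.011 and TTLL12 at -0.00078, and with offsets and the replicate block AGBL5 was at -0.014, TTLL12 at -0.0010 and VASH1 at -0.0075. Leaving out 1 library gave ranges of -0.046 to 0.058 for TTL, -0.31 to 0.45 for VASH1, -0.15 to 0.16 for SVBP, -0.065 to 0.065 for TTLL4 and -0.060 to 0.16 for TTLL5. VASH2 was at -0.70 (edgeR adjusted p = 0.10) with offsets and the block. It was called in 12 of 15 alternatives, and over all 15, called or not, the adjusted p ran from 0.0064 to 0.10. TTLL12 was called in 14 of 16. HDAC6 and ATAT1 were called in 0 of 16, with adjusted p-values of at least 0.13 and 0.49. VASH1 could not be fitted with the filter of 1 CPM in 3 libraries, and DESeq2 gave it no adjusted p.

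The labels do not say whether replicate numbers pair the libraries, and the correlations were too small to settle it. Same-numbered libraries correlated at 0.0080, 0.0070 and 0.016 in their deviations from the group means. Every library correlated best with its own number, a hint from the data and not from the design. With the replicate block 2389 genes were called over all genes, 2 of the 10 enzymes and 3 of the other genes. With the longest transcript's length 8 of 10 levels moved by more than their SD. Without docetaxel replicate 1 the difference in the log2 ratio of ATAT1 over HDAC6 was -0.12, against -0.28 with all libraries. That of VASH1 over TTL lay between -0.34 and 0.39 without 1 library. The VASH2 ratios, added after the data were seen, differed by -0.95 to -0.80 over TTL and by -1.12 to -0.66 over SVBP without 1 library.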

Other observations

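The detyrosinase MATCAP1 and its paralog MATCAP2 had higher transcript levels per length than the vasohibins. MATCAP1 had 17.4 ± 0.885 TPM in docetaxel and 17.1 ± 0.847 TPM in control (SD, n = 3 each), and MATCAP2 had 8.55 ± 0.418 TPM in docetaxel and 10.7 ± 0.691 TPM in control. VASH2 lay at 0.482 to 0.593 TPM with docetaxel and 0.828 to 1.12 TPM in control, and VASH1 at 0.0604 to 0.168 and 0.0842 to 0.103 TPM. In all 6 libraries both MATCAP genes lay above both vasohibin genes. This comparison was chosen after the values were seen, and levels of RNA say nothing of enzyme activity.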
